A study of Saccharomyces cerevisiae with 18 samples.

Results

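Chromosomes VIII and IX of budding yeast were followed through 6 RNA-seq libraries by the transcripts of the genes they carry. The rows were chosen by systematic name, YH for chromosome VIII and YI for chromosome IX, which gave 414 of the 5143 rows of the count table. Of these, 237 lie on chromosome VIII (37 on the left arm and 200 on the right) and 177 on chromosome IX (143 on the left arm and 34 on the right). Both chromosomes were singled out because their median level differed between libraries, so the chromosome medians below are a description and carry no test. The rows cover most of each chromosome: RefSeq lists 293 protein-coding genes on chromosome VIII and 214 on chromosome IX. In R64, the build that the submitters' processing notes also name, the outermost rows are DFP4 (chrVIII:13565-14272) and FLO5 (chrVIII:525392-528619), and SOA1 (chrIX:30938-32566) and YIR042C (chrIX:435273-435983).

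The libraries came from 3 wild-type (WT) and 3 ten1-31 samples of Saccharomyces cerevisiae. The ten1-31 allele is a temperature-sensitive form of TEN1, a subunit of the Cdc13-Stn1-Ten1 complex that caps telomeres. Both genotypes spent the night at 25 °C and then nearly 5 h at 34 °C, after which total RNA was prepared and depleted of ribosomal RNA. Where 3 values of a genotype are listed, they are those of replicates 1, 2 and 3 in that order. Ploidy, strain background and whether the 3 ten1-31 cultures share a founding clone are not given in the sources used here. Nor is it said that replicates were grown separately, so p-values measure the spread between these libraries only. The 12 ChIP-seq samples of the series were not analysed here.

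Library totals ran from 10469608 to 14442999 counts, and between 0 and 5 rows of a library held no more than 3 counts. Counting error is larger for rows such as DAL1 and DAL4, which had 15 to 22 and 17 to 30 counts in the WT libraries. TEN1 itself was at 7.08, 9.37 and 10.1 CPM (counts scaled to the size of the library) in wild type and at 30.8, 29.6 and 29.8 CPM in ten1-31. The genotypes did not overlap in the transcript that the allele changes.

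Budding yeast has 16 nuclear chromosomes, and a haploid cell carries 1 copy of each. In yeast strains with an extra copy of a chromosome, transcript levels of most genes on it are known to follow the copy number. A gene's transcript also depends on its own regulators, and the level of a whole chromosome is therefore read from the median of many genes. The table holds RNA counts only. DNA copy number was not measured in it, and its part in the results was not tested.

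In the ten1-31 libraries, transcripts of chromosome VIII were higher in replicates 1 and 2 but not in replicate 3, and those of chromosome IX were higher in all 3 and most so in replicate 3. The share of all counts shows this without any scaling between libraries. Chromosome VIII took 4.69%, 4.71% and 4.68% of the counts in wild type, and 7.21%, 6.52% and 4.64% in ten1-31. Replicate 3 lay just under the WT libraries and the other two far above them. Chromosome IX took 2.33%, 2.31% and 2.34% in WT and 2.96%, 2.86% and 3.47% in ten1-31, with no overlap between the genotypes.

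Per library, each row's CPM was then set against its mean over the 6 libraries on the log2 scale, and the median was taken over the rows of a chromosome. For chromosome VIII this median deviation was -0.18, -0.22 and -0.22 in wild type and 0.41, 0.24 and -0.21 in ten1-31. Replicate 3 of ten1-31 sat among the WT libraries. For chromosome IX it was -0.24, -0.23 and -0.21 in WT and 0.12, 0.08 and 0.34 in ten1-31. The medians of the 13 chromosomes other than VIII, IX and XI stayed between -0.06 and 0.06 in all 6 libraries.

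Because the 6-library mean includes the shifted libraries, the same rows were also set against the WT mean (for a WT library, the mean of the other two), and the median of the 13 other chromosomes in that library was subtracted. On this scale chromosome VIII stood at 0.65, 0.50 and 0.05 in ten1-31, which is 1.57-fold, 1.41-fold and 1.04-fold. It stood at 0.03, -0.02 and -0.04 in wild type. Chromosome IX stood at 0.41, 0.32 and 0.59 in ten1-31 (1.33-fold, 1.25-fold and 1.501-fold) and between -0.01 and 0.01 in WT. The group means were 0.40 ± 0.31 for chromosome VIII and 0.44 ± 0.14 for chromosome IX in ten1-31 (SD, n = 3 each), so the spread between replicates on chromosome VIII was close in size to the mean itself. In RNA from a whole culture, a moderate shift in every cell and a larger one in part of the cells cannot be told apart.

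**Figure D1:**
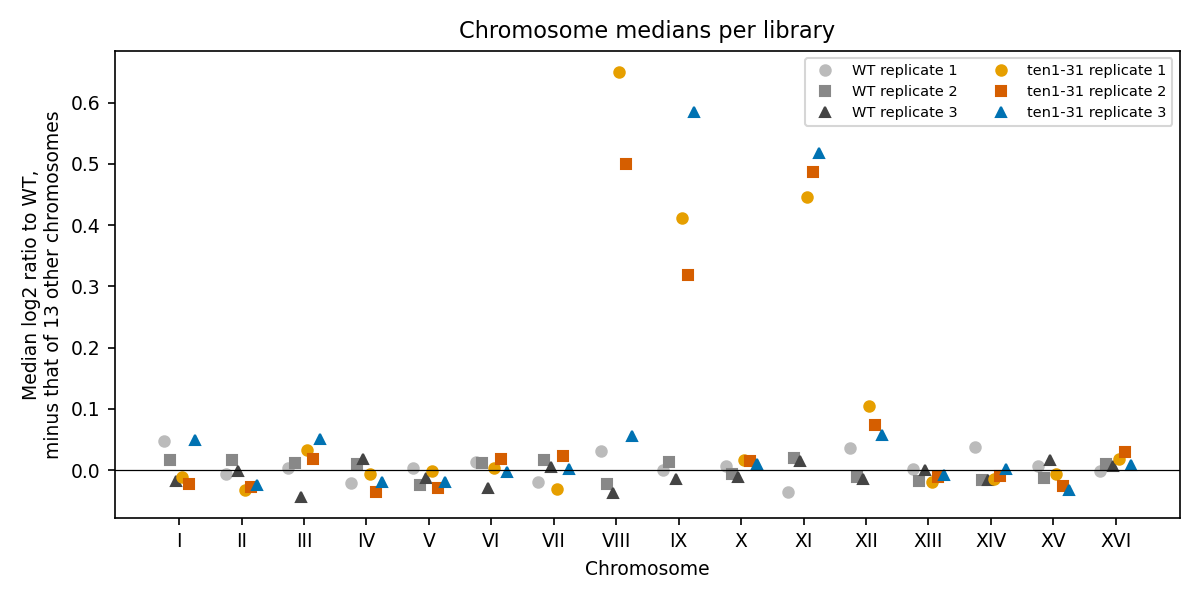
Median log2 ratio to WT per chromosome (x axis) and library, minus the median of the 13 chromosomes other than VIII, IX and XI in the same library. Each point is 1 library. Chromosome VIII is at 0.65 and 0.50 in ten1-31 replicates 1 and 2 and at 0.05 in replicate 3, chromosome IX is at 0.41, 0.32 and 0.59, and the WT libraries lie near 0 on all 16 chromosomes.

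Chromosome XI was the one other chromosome of this kind. It stood at 0.45, 0.49 and 0.52 in ten1-31, with a mean of 0.48 ± 0.035 (SD, n = 3), so that its replicates agreed closely where those of VIII and IX did not. The other 13 chromosomes lay between -0.04 and 0.10 in ten1-31, the highest being chromosome XII in replicate 1, and all 16 chromosomes lay between -0.04 and 0.05 in WT.

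Among the ten1-31 libraries the differences were shared by nearly every row. On chromosome VIII, 234 of 236 rows tested were higher in replicate 1 than in replicate 3, with a median ratio of 1.55-fold and with 80% of the rows between 0.43 and 0.80 on the log2 scale. Likewise 234 of 236 were higher in replicate 2 than in replicate 3, at a median of 1.39-fold. Replicate 1 exceeded replicate 2 in 217 of 236 rows, by 1.12-fold at the median. On chromosome IX the order was turned, with replicate 3 above replicate 1 in 166 of 177 rows (1.16-fold at the median) and above replicate 2 in 173 of 177 rows (1.19-fold). The 13 other chromosomes had medians between -0.04 and 0.03 on the log2 scale for the same 3 pairs of libraries. Rows of a chromosome share their library and are not replicates, so these counts describe the libraries and give no p-value.

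The differences among the ten1-31 libraries were even along each chromosome, while the ratio to WT varied. Rows were placed in their order from the left to the right end and divided into groups of 19 or 20, which gave 12 groups on chromosome VIII and 9 on chromosome IX. Set against the other libraries of the same genotype, the group medians on chromosome VIII ran from 0.36 to 0.42 in ten1-31 replicate 1, from 0.14 to 0.20 in replicate 2 and from -0.60 to -0.51 in replicate 3. The ranges of the 3 libraries did not overlap, and every group had the sign of its library. On chromosome IX they ran from -0.12 to -0.06 in replicate 1, from -0.18 to -0.13 in replicate 2 and from 0.20 to 0.27 in replicate 3. In the WT libraries the groups of both chromosomes ran from -0.15 to 0.15. Set against WT and above the 13 other chromosomes, the same groups spread more widely. On chromosome VIII they ran from 0.50 to 0.97 in ten1-31 replicate 1, from 0.33 to 0.78 in replicate 2 and from -0.12 to 0.29 in replicate 3. On chromosome IX they ran from 0.29 to 0.62, from 0.27 to 0.52 and from 0.53 to 0.77. Every group of both chromosomes was thus above WT in these libraries except for some groups of chromosome VIII in replicate 3.

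**Figure D2:**
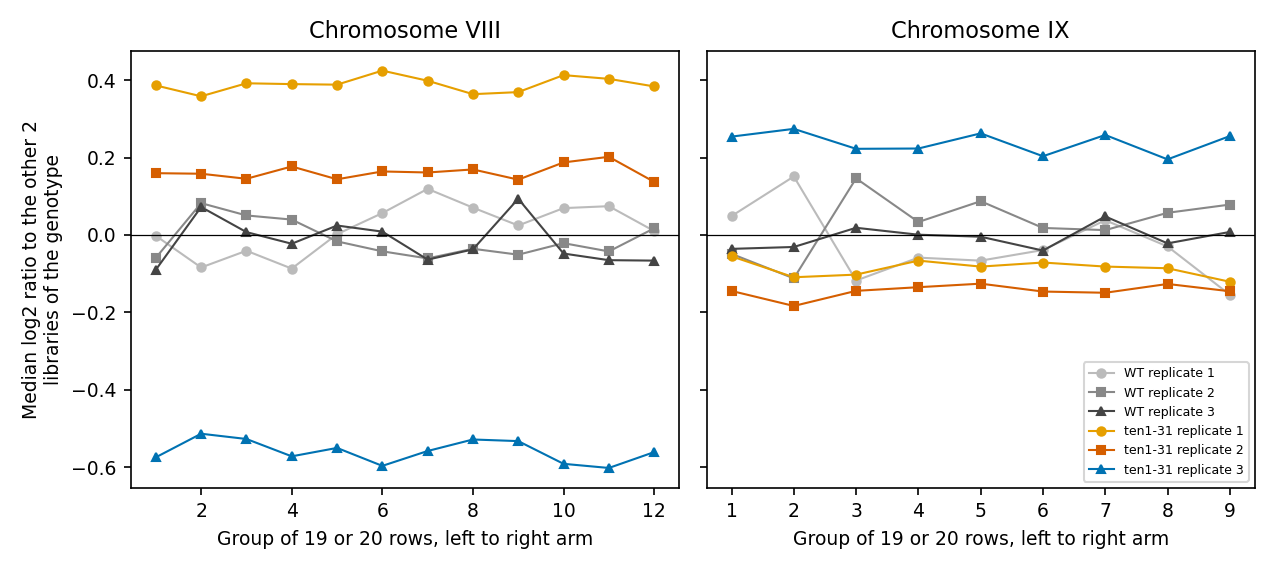
Median log2 ratio of each library to the other 2 libraries of its genotype, in groups of 19 or 20 rows ordered from the left to the right end of chromosome VIII (12 groups) and chromosome IX (9 groups). Lines join the groups of 1 library. The ten1-31 lines are nearly flat, with replicate 3 lowest on chromosome VIII (-0.60 to -0.51) and highest on chromosome IX (0.20 to 0.27).

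The 13 other chromosomes were not divided by abundance. In the ten1-31 libraries, rows of low abundance stood highest among the rows of chromosome VIII. Above the 13 other chromosomes, its rows of low, middle and high abundance were at 0.75, 0.62 and 0.60 in ten1-31 replicate 1, at 0.58, 0.46 and 0.44 in replicate 2 and at 0.14, 0.02 and -0.04 in replicate 3. On chromosome IX the 3 classes were at 0.40, 0.43 and 0.41 in replicate 1, at 0.38, 0.31 and 0.31 in replicate 2 and at 0.58, 0.59 and 0.58 in replicate 3. There the low class was the highest in replicate 2 only. Genes read from either DNA strand of chromosome VIII lay at 0.65 and 0.66 in replicate 1. In the same library the left arm of chromosome VIII stood at 0.81 and the right arm at 0.62, but within the genotype the arms were at 0.38 and 0.39. Length went along with the ratio to WT, and the longest of 3 length classes on chromosome VIII stood at 0.87 in replicate 1 and the shortest at 0.56. The longest class was also the highest on the 13 other chromosomes, at 0.14 in replicate 1 against -0.07 for the shortest. Within the genotype the 3 length classes ran from 0.37 to 0.41 on chromosome VIII in replicate 1. On chromosome IX they ran from -0.11 to -0.05 in replicate 1 and from 0.18 to 0.27 in replicate 3.

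A few genes departed from their chromosome within the genotype. They were picked after their values were seen. On chromosome VIII, 207 of 236 rows lay within 0.25 on the log2 scale of the median ratio of replicate 1 to replicate 3. Of the 226 rows with a mean of at least 10 CPM, 5 departed by more than 0.5. HXT4, a high-affinity glucose transporter gene, was at 1596 CPM in replicate 1 and 1892 CPM in replicate 3, against the direction of the chromosome. STE12, the transcription factor of the pheromone response, was nearly level at 137, 136 and 125 CPM in ten1-31. The others were SPL2, a phosphate-regulated gene, HXT1 and YHK8, all of which exceeded the median ratio. SPL2 was at 22.8 CPM in replicate 1 and 4.27 CPM in replicate 3. On chromosome IX, 163 of 177 rows lay within 0.25 of the median ratio of replicate 3 to replicate 2, and 1 row departed by more than 0.5. That row was BAR1, which encodes the protease that degrades alpha-factor, at 92.1, 114 and 210 CPM in ten1-31 and at 143, 141 and 137 CPM in wild type.

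Genotypes were compared gene by gene in 1 fit over the whole table (edgeR's quasi-likelihood test, Benjamini-Hochberg adjustment over 5133 rows, threshold 0.05). Of 236 chromosome VIII rows tested, 101 were called higher in ten1-31 and 11 lower, and of 177 chromosome IX rows, 108 were called higher and 8 lower. The background over the whole table was 24.3% called higher and 26.2% lower, or 50.5% in either direction. Of these calls 48.2% were higher, and 60.4% when libraries were scaled by their size only. On chromosome VIII these shares were 42.8% and 4.66%, and on chromosome IX they were 61.0% and 4.52%. As the chromosomes were chosen on these libraries, the excess of higher calls over the background is a description only. The median log2 fold change was 0.36 on chromosome VIII and 0.38 on chromosome IX, against -0.0038 over all rows. The 413 rows tested on both chromosomes make up 8.05% of the rows tested, 16.7% of those called higher and 1.41% of those called lower.

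The number of calls on chromosome VIII moved with single libraries. Without ten1-31 replicate 3, 157 of its rows were called higher. Without ten1-31 replicate 1 there were 60, without replicate 2 there were 58, and without WT replicate 3 there were 48. Over all rows, calls in either direction fell from 2591 to 1955, 1824 and 1887 in the latter fits, and to 2238 without ten1-31 replicate 3. Of the calls in these fits, 47.5% to 48.6% were higher. Calls thus dropped over the whole table as well, but by a smaller share than on chromosome VIII. The rise on chromosome VIII without ten1-31 replicate 3 was not seen over all rows. The ten1-31 libraries all exceeded the WT libraries in 79 of 236 chromosome VIII rows and in 116 of 177 chromosome IX rows, where 29.0% of all rows did so. They all lay below in 13 and 10 rows, where 31.6% of all rows did so.

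To see which genes differed beyond their chromosome, the fit was repeated with each library's chromosome median taken out as an offset, for all 16 chromosomes alike. This fit was added after the data were seen, it treats the offsets as known, and it centres each chromosome by construction. Relative to their own chromosome, 58 chromosome VIII rows were called higher and 59 lower, and 49 chromosome IX rows were called higher and 42 lower. The shares over all rows in this fit were 23.3% higher and 25.2% lower. Of the 101 chromosome VIII rows called higher against WT, 58 were still called higher and 43 were no longer called, and 48 rows not called before were called lower. Of the 108 on chromosome IX, 49 were still called higher and 59 were not, and 34 rows not called before were called lower.

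**Figure D3:**
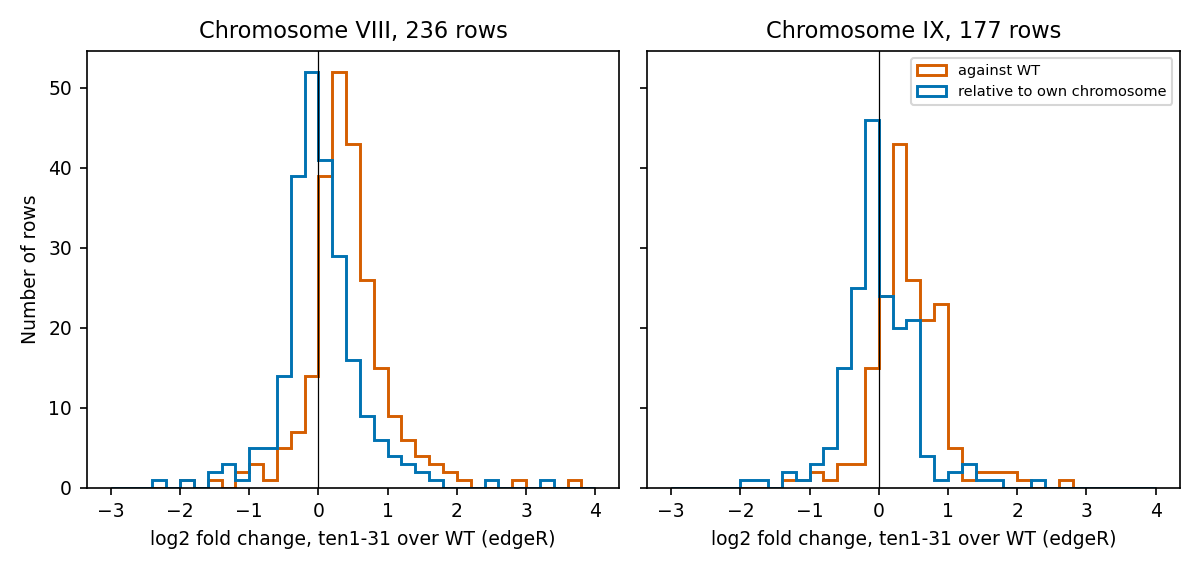
Number of rows (y axis) by log2 fold change of ten1-31 over WT (x axis) for 236 rows of chromosome VIII and 177 rows of chromosome IX. The outline of the comparison against WT is centred at 0.36 and 0.38, and that relative to the own chromosome is centred near 0 by construction.

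Ribosomal protein genes are shown next because those elsewhere in the genome were mostly lower in ten1-31. They encode the proteins of both ribosomal subunits, are regulated together, and mostly exist as pairs of near-identical copies on different chromosomes. On the 13 other chromosomes, 89 of 117 were called lower in ten1-31 and 2 higher, with a median log2 fold change of -0.41. Over all rows 26.2% were called lower and 24.3% higher, and on chromosomes VIII and IX 4.60% and 50.6%. Of the 12 ribosomal protein genes on chromosomes VIII and IX, 0 were called lower and 1 was called higher in the edgeR fit, and their median was 0.16. At an unadjusted p under 0.05, 1 was lower, and that gene was also called lower with DESeq2, with upper quartile scaling, with the chromosome offset within genotype and without ten1-31 replicate 1. It was RPS20 (YHL015W, chrVIII:75412-75777), which encodes a protein of the small subunit, at 2257, 2272 and 2529 CPM in wild type and 2181, 1878 and 1453 CPM in ten1-31 (adjusted p by edgeR = 0.0688). Relative to their own chromosome, 7 of the 12 were called lower and 0 higher, where 25.2% and 23.3% of all rows were. The median of the 12 was -0.25, against -0.34 for the 117 on the other 13 chromosomes.

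By library, the 7 genes on chromosome VIII had median log2 ratios to WT of 0.42, 0.24 and -0.24 in ten1-31, and the 5 on chromosome IX had 0.14, -0.04 and 0.32. The 117 on the 13 other chromosomes were at -0.38, -0.43 and -0.38. On chromosomes VIII and IX the genes thus followed the order of the libraries seen for the whole chromosome, and elsewhere the replicates lay close together. WT replicate 2 stood at -0.20 to -0.21 in all 3 sets of genes, below the other WT libraries.

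The copies of a pair offer a comparison inside each library, since both encode nearly the same protein. RPL14B (YHL001W, chrVIII:104277-105091) made up 33.2%, 33.1% and 32.5% of the summed CPM of RPL14B and RPL14A in wild type. Its partner RPL14A lies on chromosome XI, which itself stood higher in ten1-31. In ten1-31 RPL14B made up 45.4%, 43.1% and 31.5%. Replicate 3 lay just below WT and the other two well above it. Its level was 458, 405 and 265 CPM in those libraries and 261 ± 24.4 CPM in wild type (SD, n = 3), with a log2 fold change of 0.52 ± 0.19 (SE, with an adjusted p by edgeR = 0.0477). The call was lost without any 1 library other than ten1-31 replicate 3 (adjusted p by edgeR from 0.0547 to 0.161), and relative to the own chromosome it was 0.13 (adjusted p by edgeR = 0.252).

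RPS4B (YHR203C, chrVIII:504476-505530) showed a wider step, from 44.1% to 44.6% of its pair with RPS4A over the WT libraries to 60.6%, 57.9% and 49.8% in ten1-31. RPL27A made up 64.5% to 65.2% of its pair in WT and 78.5%, 76.6% and 69.3% in ten1-31. In all 6 ribosomal pairs of chromosome VIII, ten1-31 replicates 1 and 2 exceeded every WT library and replicate 3 lay below both of them. In 3 of the 6, replicate 3 was still above WT. These were RPL8A, RPL27A and RPS4B, whose paralogs lie outside chromosome XI. Of the rest, RPL14B and RPS27B have their paralogs on chromosome XI, and RPL42B has its paralog on chromosome XIV. Whether the count depends on the chromosome of the paralog was not tested.

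On chromosome IX, RPL34B (YIL052C, chrIX:256226-257063) made up 51.8% to 52.5% of its pair with RPL34A in WT, and 56.1%, 55.7% and 61.6% in ten1-31. RPS24B made up at most 38.4% of its pair in WT and 45.8%, 43.8% and 48.7% in ten1-31. In all 5 pairs of chromosome IX the 3 ten1-31 libraries exceeded WT, and replicate 3 was the highest. Of the 8 paralogs that lie outside chromosome XI, 7 were called lower in ten1-31, and the 3 on chromosome XI (RPL14A, RPS27A and RPL40B) had log2 fold changes from -0.13 to 0.06. How reads were divided between near-identical copies is not given in the sources used here, so the share of a copy is uncertain, and the comparison rests on the same counting having been used in all libraries.

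**Figure D4:**
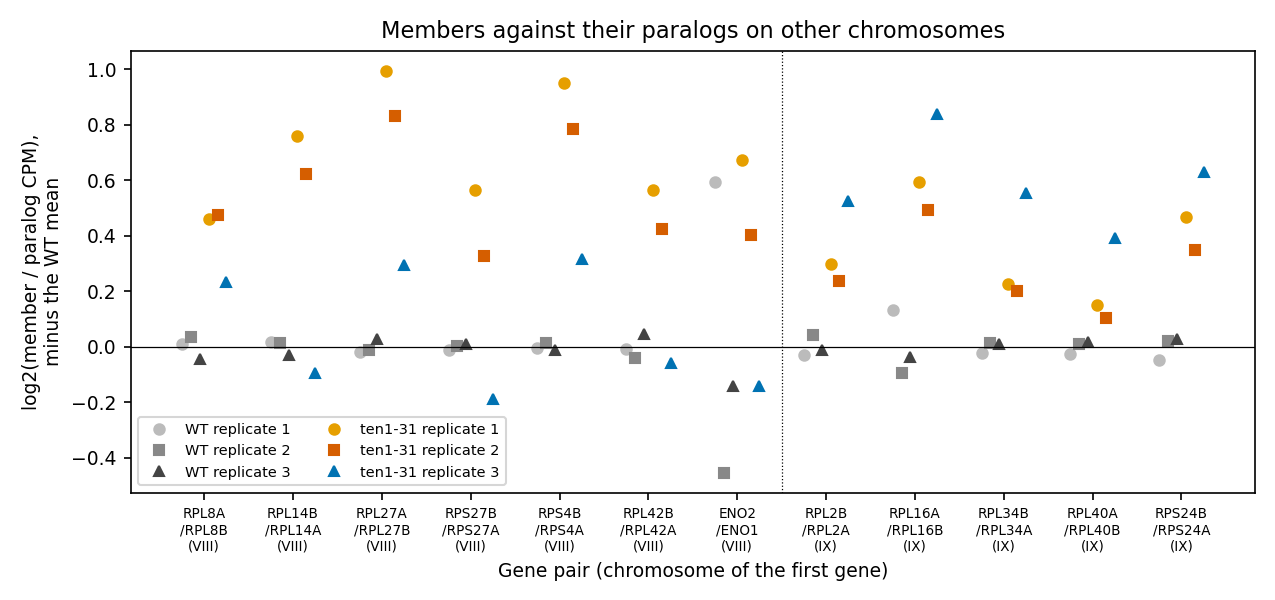
log2 ratio of CPM of a gene on chromosome VIII or IX to its paralog on another chromosome, minus the mean of that ratio in WT. Each point is 1 library. For the ribosomal pairs ten1-31 replicates 1 and 2 lie above the WT libraries throughout, and replicate 3 is below them both on chromosome VIII and above them both on chromosome IX. ENO2 with ENO1 spreads widely within WT.

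ENO2 (YHR174W), which encodes the major enolase of glycolysis, was the most abundant row of chromosome VIII. It was at 9145, 7517 and 7880 CPM in wild type and at 13830, 11906 and 7503 CPM in ten1-31. Replicate 3 lay just under the lowest WT library, and the difference did not pass the test (log2 fold change 0.44 ± 0.21, SE, with an adjusted p by edgeR = 0.111). Without ten1-31 replicate 3 it did (0.64; adjusted p by edgeR = 0.00695), and relative to the own chromosome it was 0.04. THS1, the threonyl-tRNA synthetase gene and among the 3 most abundant rows of chromosome IX, was at 1173 ± 102 CPM in wild type and 1389 ± 120 CPM in the ten1-31 libraries (SD, n = 3 each), with an adjusted p of 0.0688 in edgeR. It was called higher in 7 of the alternatives, among them DESeq2 and library size only, with adjusted p-values from 0.0201 to 0.0454.

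The largest rises on chromosome VIII far exceeded the shift of the chromosome. RIM4 (YHL024W, chrVIII:56649-58790), which encodes an RNA-binding regulator of meiosis, averaged 10.7 ± 4.46 CPM in the WT and 134 ± 27.4 CPM in the ten1-31 libraries (SD, n = 3 each). The log2 fold change was 3.66 ± 0.28 (SE, with an adjusted p by edgeR = 8.87e-05), and 3.28 relative to its chromosome. CRG1 (YHR209W), a methyltransferase gene, was at 18.3, 22.9 and 19.5 CPM in wild type and 173, 185 and 115 CPM in ten1-31. SLT2 (YHR030C, chrVIII:168890-170344), the MAP kinase of the cell wall integrity pathway, was at 73.2, 90.3 and 84.2 CPM in wild type and 360, 347 and 213 CPM in ten1-31. SPO12, a regulator of mitotic exit, and MIP6, which encodes an RNA-binding protein, had log2 fold changes of 2.01 and 1.98. In all 5 genes, replicate 3 was the lowest of the ten1-31 libraries, as in nearly every row of the chromosome. It was still above every WT library, which the rule for naming these genes requires (no overlap between genotypes). All 5 were also called higher relative to their chromosome (edgeR, adjusted p up to 0.000115).

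The largest falls on chromosome VIII included genes of amino acid metabolism. ARG4 (YHR018C, chrVIII:140011-141402), argininosuccinate lyase of arginine synthesis, was at 786, 1048 and 880 CPM in wild type and at 273, 242 and 236 CPM in ten1-31. Its log2 fold change was -1.85 ± 0.12 against WT (SE, with an adjusted p by edgeR = 4.49e-05) and -2.21 relative to its chromosome. BAT1, the mitochondrial branched-chain aminotransferase gene, went from 1047 ± 28.8 to 519 ± 119 CPM (SD, n = 3 each). PCL5, a cyclin of the Pho85 kinase that promotes turnover of Gcn4, fell by 0.93 on the log2 scale. MPC2, a subunit of the mitochondrial pyruvate carrier, fell by 1.16, and YHI9 had a log2 fold change of -1.496. All 5 were lowest in replicate 3 among the ten1-31 libraries.

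On chromosome IX the largest rises with at least 10 CPM were TIR3, PRM5, YPS6, PFK26 and POG1, with log2 fold changes from 1.44 to 1.81 and edgeR adjusted p-values from 9.51e-05 to 0.00130. TIR3 (YIL011W, chrIX:333727-334536) encodes a cell wall mannoprotein and went from 8.64 ± 1.73 to 30.3 ± 1.31 CPM (SD, n = 3 each). PRM5 (YIL117C), a membrane protein gene used as a reporter of the cell wall integrity pathway, was at 35.3, 49.0 and 43.9 CPM in wild type and 134, 138 and 174 CPM in ten1-31. YPS6 encodes a yapsin protease at the cell surface, PFK26 a 6-phosphofructo-2-kinase, and POG1 a factor that promotes recovery from pheromone arrest. In 4 of the 5 replicate 3 was the highest ten1-31 library, and TIR3 was the exception. All 5 were also called higher relative to the chromosome.

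The largest falls on chromosome IX were SOA1, HIS5, LYS1, IST3 and DAL3. SOA1 (YIL166C), a transporter of sulfur-containing anions, went from 31.2 ± 5.19 to 13.6 ± 1.56 CPM (SD, n = 3 each). LYS1 (YIR034C, chrIX:419615-420736), the last enzyme of lysine synthesis, was at 269, 303 and 248 CPM in wild type and 146, 137 and 154 CPM in ten1-31. Its log2 fold change was -0.91 ± 0.09 (SE, with an adjusted p by edgeR = 0.000271), and -1.32 relative to its chromosome. IST3, a splicing factor gene, had a log2 fold change of -0.69. In these 5 genes as well replicate 3 was the highest ten1-31 library.

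**Figure D5:**
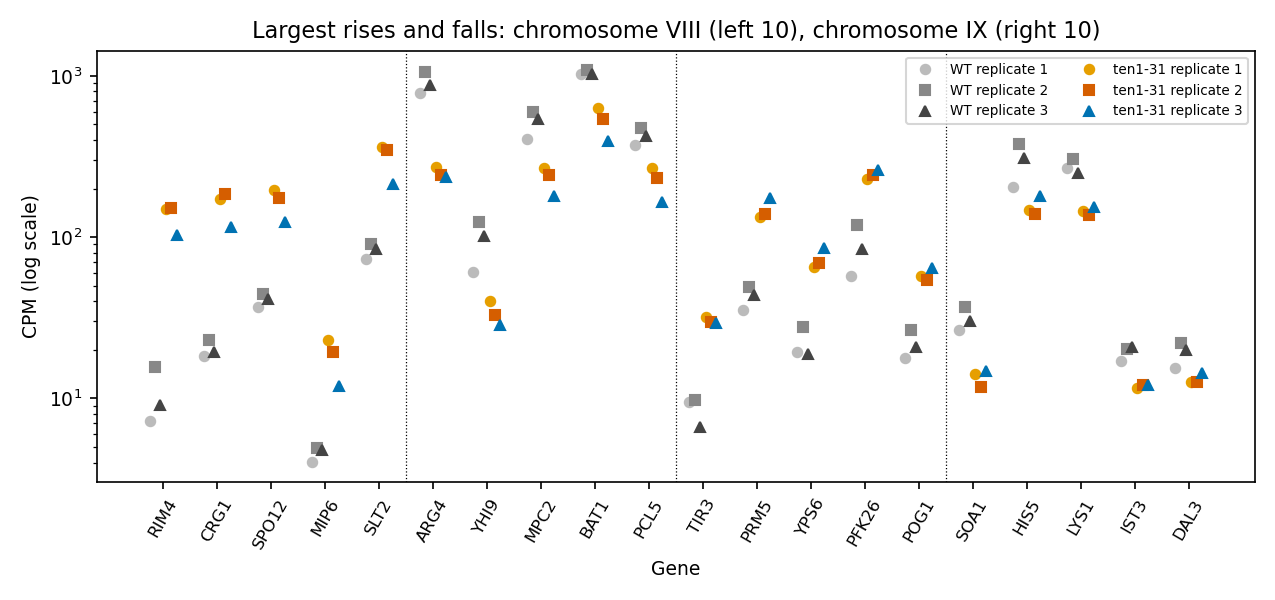
CPM (log scale) in each library for the 5 largest rises and 5 largest falls of chromosome VIII (left 10 genes) and of chromosome IX (right 10 genes), separated by dotted lines. Each point is 1 library. Among the ten1-31 libraries replicate 3 is the lowest for all 10 genes of chromosome VIII and the highest for 9 of 10 genes of chromosome IX.

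Of the 4 genes with a row on a list of amino acid synthesis, which does not hold ARG4, BAT1 or THR1, 3 fell. Over all rows 26.2% were called lower, and 4.60% of those on chromosomes VIII and IX. The list was written with earlier results of these data known, and 4 genes are too few for a result about it. All 4 log2 fold changes were negative. Besides HIS5 and LYS1, LYS12 (YIL094C), homoisocitrate dehydrogenase of lysine synthesis, went from 807 ± 58.6 to 593 ± 44.2 CPM (SD, n = 3 each), with an adjusted p of 0.00453 in edgeR. HIS5, an aminotransferase of histidine synthesis, was at 204, 379 and 310 CPM in wild type and 146, 138 and 181 CPM in ten1-31. ARO9, an aromatic aminotransferase gene on chromosome VIII, was at 93.2, 81.3 and 55.1 CPM in ten1-31 and 96.4 ± 17.8 CPM in wild type (SD, n = 3; adjusted p by edgeR = 0.200). Relative to their own chromosome all 4 were called lower. The median log2 fold change of the 4 was -0.68.

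Of 6 listed genes of sugar uptake and metabolism, 2 rose, where 24.3% of all rows and 50.6% of the rows of chromosomes VIII and IX were called higher. The count is thus no result about the list. SUC2, the invertase gene on chromosome IX, went from 45.6 ± 15.05 to 92.2 ± 13.3 CPM (SD, n = 3 each), with an adjusted p of 0.00624 in edgeR. HXT5, a hexose transporter gene expressed at slow growth, was at 4.38, 4.25 and 5.96 CPM in wild type and 20.9, 9.28 and 9.61 CPM in ten1-31 (adjusted p by edgeR = 0.0101). HXT1, a low-affinity glucose transporter gene, varied within WT from 3.38 to 91.1 CPM, and without WT replicate 1 it was called higher (adjusted p by edgeR = 0.00172). HXT1, HXT4 and HXT5 are related in sequence, and the division of reads among them is uncertain. GUT1, the glycerol kinase gene, was at 179, 166 and 95.8 CPM in ten1-31 and 117 ± 18.3 CPM in wild type (SD, n = 3), and was called higher when ten1-31 replicate 3 was left out (adjusted p by edgeR = 0.0137).

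The allantoin genes, which break down a nitrogen source and stand side by side on the right arm of chromosome IX, did not all change in the same direction. Of the 5 listed, 2 were called higher and 1 lower. On chromosome IX 61.0% of rows were called higher and 4.52% lower, and over all rows 24.3% and 26.2%. The counts are too small to be a result about the list. DAL1 (allantoinase) rose from 1.45 ± 0.15 to 6.06 ± 0.27 CPM (SD, n = 3 each), with an adjusted p of 0.000141 in edgeR. DAL4, the allantoin permease gene, was called higher at a log2 fold change of 0.94, but that call was lost in 5 of the 6 fits that left out 1 library (adjusted p by edgeR from 0.0586 to 0.133). DAL3 (ureidoglycolate lyase) fell from 19.1 ± 3.39 to 13.2 ± 0.96 CPM, a call that was lost when WT replicate 3 or either of the first 2 ten1-31 replicates was left out (edgeR, adjusted p from 0.0574 to 0.0740). DAL2 and DAL7 were at log2 fold changes of 0.16 and -0.10 and were not called.

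In DNA replication and repair, 5 of 6 listed genes had a row, of which 3 rose. That share is close to the 50.6% called higher on both chromosomes, where 24.3% of all rows were. The count is no result about the list. DNA2 (YHR164C, chrVIII:424610-429178), a nuclease and helicase that processes Okazaki fragments and DNA ends, was at 87.8, 71.7 and 68.97 CPM in wild type and 235, 207 and 141 CPM in ten1-31. Its log2 fold change was 1.35 ± 0.19 (SE, with an adjusted p by edgeR = 0.000949), and 0.96 relative to its chromosome. RTT107, a scaffold protein gene of the response to damaged replication forks, was called higher at 0.63 (adjusted p by edgeR = 0.0394). That call was lost relative to its chromosome (adjusted p by edgeR = 0.165) and in 4 of the 6 fits that left out 1 library. ORC6 (YHR118C, chrVIII:344321-345628), a subunit of the origin recognition complex, was at 39.1, 36.4 and 41.2 CPM in wild type and 62.7, 60.7 and 42.7 CPM in ten1-31. Replicate 3 lay just above the highest WT library. The call (log2 fold change 0.51 ± 0.15, SE, with an adjusted p by edgeR = 0.0220) was lost relative to its chromosome (0.13; adjusted p by edgeR = 0.219) and in 4 of the 6 fits that left out 1 library (adjusted p by edgeR from 0.0530 to 0.0773). CTF8 and REV7, a subunit each of a clamp loader and of DNA polymerase zeta, were at -0.02 and -0.18 and were not called, but both were called lower relative to their own chromosome.

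Of 4 listed genes of the RNA polymerase II machinery, 1 rose and 1 fell, which is close to the share of all rows called in each direction. On chromosomes VIII and IX 50.6% of rows were called higher and 4.60% lower. With 4 genes the counts say nothing about the list. RPC10, a small subunit shared by the 3 nuclear RNA polymerases, went from 56.6 ± 4.88 to 92.2 ± 21.6 CPM, with 105, 105 and 67.3 CPM in ten1-31 (adjusted p by edgeR = 0.0109). SRB2, a Mediator subunit gene, went from 95.8 ± 2.00 to 71.0 ± 9.605 CPM (SD, n = 3 each), with an adjusted p of 0.0105 in edgeR. RPB3, a core subunit of RNA polymerase II encoded on chromosome IX, was level at 94.5 ± 4.87 and 95.1 ± 10.3 CPM (SD, n = 3 each), and relative to its chromosome it was called lower at -0.41 (adjusted p by edgeR = 0.00161). MED6, another Mediator subunit gene, was at 44.9, 38.9 and 28.6 CPM in ten1-31, and at 40.8 ± 0.91 CPM in wild type (SD, n = 3).

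Of 7 listed genes of meiosis and sporulation 4 had a row. RIM4 and SPO12 rose, as given above, while SPO16 and CSM2 were at log2 fold changes of 0.06 and 0.47 and were not called. That 2 of 4 rose is close to the 50.6% called higher on both chromosomes, where 24.3% of all rows were. The count is no result about the list. The copper metallothionein genes CUP1-1 and CUP1-2, a repeated locus on chromosome VIII, are without a row and not analysed here, as are HIS6, RNR3, SPO11, SPO13 and SGA1.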

How the data were processed

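The authors deposited 1 table of raw read counts per gene, with 1 column for each of the 6 RNA-seq libraries. That the counts are not normalized follows from their being whole, with totals that differ between libraries. Per the submitters' processing notes, FastQC, cutadapt, Trimmomatic, TopHat2, Bowtie2 and featureCounts were used with builds R64 and sacCer3. Versions, the strand setting and the row filter are not given in the sources used here, so counts of overlapping or antisense genes are uncertain. Symbols and positions are from the RefSeq table of R64, which matched 411 of the 414 rows.

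Genotypes were compared under R 4.3.3 by edgeR 4.0.16 after TMM scaling and filterByExpr (minimum count 10, minimum total 15, leaving 5133 rows, 413 of them on the 2 chromosomes), with genotype as the only term. CPM is relative to the TMM-scaled library size. The standard error is the log2 fold change divided by the square root of F. Alternatives were other scalings, row filters, DESeq2 1.42.0, limma-voom (limma 3.58.1), a replicate block, chromosome offsets and leaving out each library. The procedure was tested on simulated counts.

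Members, gene lists and alternatives were chosen with earlier results of these data known. Genes named are the ribosomal protein genes, the listed genes, the 3 most abundant rows per chromosome, and the 5 largest rises and falls per chromosome with adjusted p under 0.05, at least 10 CPM and no overlap between genotypes. RPP1, whose symbol matches the ribosomal pattern but which encodes a subunit of RNase P, was left out of that list. All per-sample columns were used.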

Additional observations from a re-analysis of the deposited data

How the results depend on the processing

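Replicate numbers are not said to pair the libraries, and same-numbered deviations correlated at 0.20, 0.21 and 0.08 (the other 6 pairs at -0.23 to 0.05), so they were not treated as paired. With the replicate number as a block, the rows called were 123 on chromosome VIII and 118 on chromosome IX, against 112 and 116 without it. DAL4 lost its call and HXT1 and THS1 gained one.

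At an adjusted p under 0.01, 52 chromosome VIII rows were called, 44 of them higher, and 5 chromosome IX rows were called lower, fewer by construction. Relative to the own chromosome, 58 rows were higher and 59 lower on chromosome VIII, and 49 higher and 42 lower on chromosome IX. Leaving out 1 library at a time, chromosome VIII had 57 to 167 rows called, 48 to 157 higher and 9 to 14 lower, and chromosome IX had 85 to 110 called, 78 to 101 higher and 5 to 11 lower. The most rows called on chromosome VIII came without ten1-31 replicate 3 and the fewest without WT replicate 3. Chromosome IX also had its fewest, 85, without WT replicate 3. Over all rows, 1824 to 2974 were called in these fits, against 2591 with all libraries. The number was 1887 without WT replicate 3, so calls dropped over all rows too, by a smaller share than on chromosome VIII. The cause of the drop was not tested. The difference in median deviation between genotypes went from 0.35 to between 0.23 and 0.52 on chromosome VIII, and from 0.41 to between 0.31 and 0.46 on chromosome IX, so it kept its sign. The span of within-genotype deviations in ten1-31 was 0.95 on chromosome VIII (0.34 to 1.25) and 0.38 on chromosome IX (0.11 to 0.56), in each case smallest without replicate 3. Each library was set against the others of its genotype, so the span exceeds the direct difference between libraries. Directly, the log2 ratio of replicate 1 to replicate 3 was 0.64 at the median on chromosome VIII. That of replicate 2 to replicate 3 was -0.26 on chromosome IX. The ends of both ranges come from fits without 1 ten1-31 library, where the span is on another scale. Without ten1-31 replicate 3, replicate 2 stood at -0.17 on chromosome VIII, and without replicate 1 at 0.46. Under the other scalings, filters and row choices the difference lay between 0.30 and 0.43 on chromosome VIII and between 0.36 and 0.48 on chromosome IX.

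Relative to the own chromosome, log2 fold changes turned negative for RPS24B (-0.24), RPS27B (-0.22), RPL34B (-0.21), RPL16A (-0.27), RPS4B (-0.17), RPL40A (-0.33), RPL27A (-0.16), GUT1 (-0.079), DAL2 (-0.27), RPB3 (-0.41), SPO16 (-0.31) and THS1 (-0.17). With library size only, TMM without VIII and IX, and TMM without VIII, IX and XI, RPL42B was at 0.055, 0.011 and 0.038 and CTF8 at 0.061, 0.016 and 0.043. With upper quartile scaling RPB3 was at -0.040. Leaving out 1 library, the ranges that crossed 0 were RPL42B -0.17 to 0.12, RPL40A -0.033 to 0.17, DAL2 -0.042 to 0.28, DAL7 -0.24 to 0.013, CTF8 -0.13 to 0.10, MED6 -0.28 to 0.030, RPB3 -0.10 to 0.058 and SPO16 -0.028 to 0.19. None of these genes was called with all libraries against WT. For the 56 named genes, direction and call held in 966 refitted values, 37 lost a call, 30 gained one and 30 changed sign. The chromosome offsets and TMM without chromosome XI were chosen after seeing the data, apart from the offset within genotype. Depth limits little here, and 3 libraries per genotype set the precision.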

Other observations

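Chromosome XI is described here because it showed a shift with less difference between the ten1-31 libraries. Its share of a library's counts was 6.04%, 6.19% and 6.19% in wild type and 7.95%, 8.25% and 8.59% in ten1-31. Of its 292 rows tested, 197 (67.5%) were called higher and 13 (4.45%) lower in ten1-31 (edgeR, adjusted over all rows). Over all rows these shares were 24.3% and 26.2%. The ten1-31 libraries all exceeded the WT libraries in 219 rows of chromosome XI (75.0%), where 29.0% of all rows did so. Over 15 groups of 19 or 20 rows along the chromosome, the median log2 ratio to WT above the 13 other chromosomes ran from 0.25 to 0.69 in ten1-31 replicate 1, from 0.37 to 0.70 in replicate 2 and from 0.42 to 0.71 in replicate 3. Relative to the own chromosome, 65 rows (22.3%) were called higher and 73 (25.0%) lower, close to the 23.3% and 25.2% of all rows.

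Of the 1248 rows called higher in ten1-31, 101 lie on chromosome VIII, 108 on chromosome IX and 197 on chromosome XI. On the 13 other chromosomes, 841 of 4427 rows were called higher and 1311 lower.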
